A study of Homo sapiens with 6 samples.

Results

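The miR-29 family was followed in small RNA libraries of A549 cells 48 h after transfection. The members were every row of the deposited table named miR-29a, miR-29b or miR-29c, whichever arm of the hairpin the row stands for, and 6 of the 787 listed miRNAs were of that kind. They were the 3p arms hsa-miR-29a-3p, hsa-miR-29b-3p and hsa-miR-29c-3p and the 5p arms hsa-miR-29a-5p, hsa-miR-29b-1-5p and hsa-miR-29c-5p, written below without the species prefix. The 5p arm of the second miR-29b hairpin was not analysed here. All 6 rows passed the filter on low values that preceded the test, a mean of at least 1 normalized count. A549, a long-established epithelial line from a human lung adenocarcinoma, lacks functional SMARCA4 (BRG1), an ATPase subunit of the SWI/SNF complex that remodels chromatin. The cells of 1 group received pcDNA4-SMARCA4 by lipid transfection and those of the other the empty vector pcDNA4, with 3 libraries in each group that the submitters describe as independent biological replicates. The study thus asks which miRNAs differ once SMARCA4 is supplied to this line from a plasmid, and SMARCA4 mRNA itself was not analysed here.

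miRNAs are short RNAs cut from hairpin precursors. The strand that is loaded into an Argonaute protein pairs with messenger RNAs through its seed, bases 2 to 8, and lowers their translation and stability, while the opposite strand of the duplex is mostly degraded. For the miR-29 hairpins the 3p strand is the guide. Its known targets include mRNAs of collagens, elastin and fibrillin, of the DNA methyltransferases DNMT3A and DNMT3B, and of the survival protein MCL1. The family is known for restraining matrix deposition in lung and other organs, where TGF-beta lowers it in fibroblasts, and for its action on DNA methyltransferases in lung cancer cells.

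The 3 mature 3p sequences are shown first, because they share the seed (capitals) and differ only downstream of it. Sequences and positions are from RefSeq on GRCh38.p14, where all 6 rows were found.
miR-29a-3p: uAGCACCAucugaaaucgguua
miR-29b-3p: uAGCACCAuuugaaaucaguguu
miR-29c-3p: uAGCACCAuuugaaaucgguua
Counted from 1 at the 5′ end, miR-29c-3p differed from miR-29a-3p by the single substitution C10U. miR-29b-3p, which is 23 bases long against 22 for the others, differed from miR-29a-3p by C10U, G18A, U21G and A22U over the 22 positions compared. No other RefSeq mature miRNA carried the seed of the 3p arms, so among the 689 of the 787 listed names with a RefSeq sequence these 3 rows hold all reads of that seed. miR-29a-3p and miR-29c-3p differ by 1 base, and no source used here states how reads matching more than 1 miRNA were counted, so their separate values are uncertain to that extent.

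miR-29b-3p ends in a 6-base motif, shown in capitals, that in human cells is known to direct this miRNA to the nucleus.
miR-29b-3p: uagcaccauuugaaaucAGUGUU
Of 2370 RefSeq mature miRNA names, 2 (0.0844%) ended in AGUGUU, and among the 689 listed names with a RefSeq sequence miR-29b-3p was the only 1.

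The 5p arms, the opposite strands of the same duplexes, do not share a seed with each other or with another RefSeq mature miRNA, and their bases 2 to 8 are again in capitals.
miR-29a-5p: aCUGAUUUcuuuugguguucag
miR-29b-1-5p: gCUGGUUUcauauggugguuuaga
miR-29c-5p: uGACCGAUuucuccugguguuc

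The family comes from 4 hairpins in 2 clusters, all on the minus strand of GRCh38. MIR29A (chr7:130876747-130876810) and MIR29B1 (chr7:130877459-130877539) are separated by 648 bases. MIR29C (chr1:207801852-207801939) and MIR29B2 (chr1:207802443-207802523) are separated by 503 bases. In GENCODE 29, MIR29B1 lay within an exon of the lincRNA gene LINC-PINT, and MIR29A overlapped that gene by 2 bases. Both also lay in introns of the lincRNA gene AC016831.6 on the same strand and of LINC00513 on the opposite strand. MIR29B2 and MIR29C lay within exons of the lincRNA gene MIR29B2CHG. The hairpins below show the annotated arms in capitals.
MIR29A: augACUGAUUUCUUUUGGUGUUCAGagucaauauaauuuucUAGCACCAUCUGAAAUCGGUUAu
MIR29B1: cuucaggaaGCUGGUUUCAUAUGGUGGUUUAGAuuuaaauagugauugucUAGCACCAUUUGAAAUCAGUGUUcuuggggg
MIR29B2: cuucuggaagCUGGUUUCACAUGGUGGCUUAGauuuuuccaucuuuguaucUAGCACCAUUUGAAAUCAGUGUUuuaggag
MIR29C: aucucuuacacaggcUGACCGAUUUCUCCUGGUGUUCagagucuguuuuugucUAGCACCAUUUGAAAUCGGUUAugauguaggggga
The 3p arm of MIR29B1 and that of MIR29B2 are identical, so miR-29b-3p reads cannot be assigned to either cluster. miR-29a-3p and miR-29b-1-5p report on the chromosome 7 cluster and miR-29c-3p on the chromosome 1 cluster.

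Values are read counts that the authors multiplied by 1 factor per library, given here as normalized counts. The recovered read totals ranged from 701885 to 7274329 in SMARCA4 libraries and from 881370 to 1079944 in empty vector libraries, and SMARCA4 replicate 2 held the highest. That library stood apart from the other 5 in its read total, so the results on the members are also given without it. Its total of normalized counts was the highest as well, at 3073322. The others ranged from 1661870 in empty vector replicate 1 to 1835229 in SMARCA4 replicate 1. Equal normalized counts thus do not stand for equal shares of the reads in each library. For several results the values without empty vector replicate 2 are given as well. Of the epithelial marker miRNAs, 6 of 7 were listed, with summed levels from 425 to 623 in SMARCA4 libraries and from 356 to 677 in empty vector libraries. miR-200c-3p, an epithelial miRNA, was scarce at 7.45 ± 5.93 normalized counts in SMARCA4 cells and 8.16 ± 5.72 in empty vector cells (SD, n = 3 each), and miR-205-5p was not analysed here. In the same list miR-141-3p and miR-203a-3p rose with SMARCA4 (log2 fold changes 2.55 and 2.83, limma adjusted p = 0.0124 for each), while miR-200b-3p was at 190 ± 51.8 in SMARCA4 cells and 422 ± 123 in empty vector cells (SD, n = 3 each; log2 fold change -1.14, limma adjusted p = 0.109). The summed mesenchymal markers ranged from 31.4 to 122 in SMARCA4 libraries and from 22.6 to 51.3 in empty vector libraries, with 4 of 5 listed and miR-214-3p at 0 in every library. Nearly all of that sum was miR-143-3p, at 71.5 ± 46.0 in SMARCA4 cells and 38.8 ± 14.7 in empty vector cells (SD, n = 3 each; limma adjusted p = 0.449). The summed blood cell markers ranged from 7962 to 14458 in SMARCA4 libraries and from 5621 to 7213 in empty vector libraries, with 3 of 8 listed. Nearly all of that sum was miR-486-5p, at 10094 ± 3752 in SMARCA4 cells and 6359 ± 813 in empty vector cells (SD, n = 3 each; limma adjusted p = 0.257). The means of miR-142-5p were 54.9 in SMARCA4 cells and 21.3 in empty vector cells, and those of miR-150-5p were 1.07 and 1.26. The part of the marker miRNAs in the results on miR-29 was not tested.

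None of the 6 arms changed with SMARCA4 at an adjusted p under 0.05 (limma on log2(value + 1), Benjamini-Hochberg over 637 miRNAs), where 1.41% of all tested miRNAs were called. At an unadjusted p under 0.05, 2 of the 6 were lower with SMARCA4, by limma, by edgeR and by DESeq2 alike, against 11.3% of all tested miRNAs that were lower at that level by limma. In either direction 22.6% of all tested miRNAs were under that level by limma, 24% by edgeR and 18.1% by DESeq2. Neither edgeR, which called 1.26% of all tested miRNAs, nor DESeq2, which called 10.4% of those it gave an adjusted p, called a member, and DESeq2 left the adjusted p of miR-29c-5p undefined. All 6 log2 fold changes were negative, with a median of -0.85, where 51.6% of all tested miRNAs were negative and their median was -0.047. Without SMARCA4 replicate 2, 4 of the 6 were negative, where 53.7% of all tested miRNAs were. The 3p arms had a median of -0.27, which was 0.034 without SMARCA4 replicate 2 and -0.59 without empty vector replicate 2. The 5p arms had a median of -1.31. It was -1.32 when SMARCA4 replicate 2 was left out and -0.95 when empty vector replicate 2 was. The members share hairpins and libraries, so their common sign is not 6 separate observations. In RNA from whole cultures, fewer cells that express a miRNA and less of it per cell cannot be told apart.

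**Figure D1:**
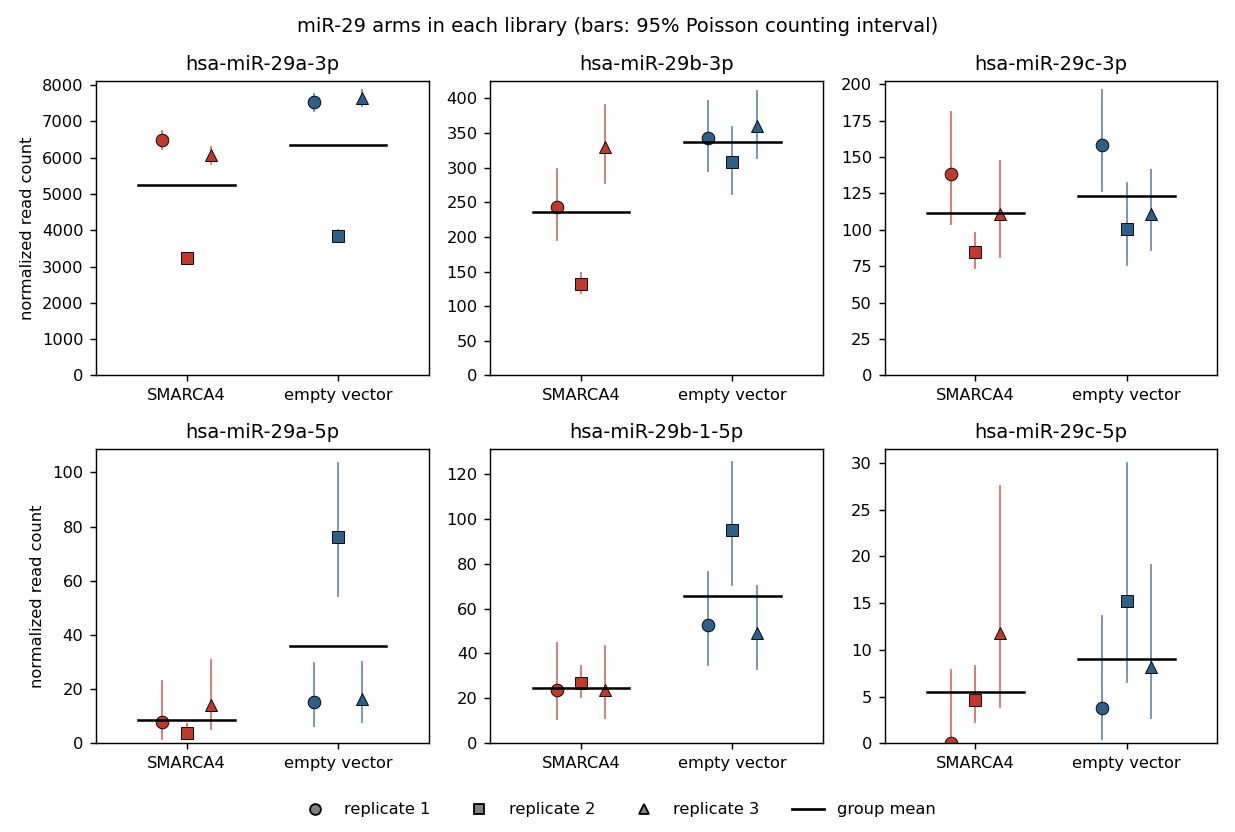
Normalized read count (vertical axes, each from 0) of the 6 miR-29 arms in the 3 SMARCA4 and 3 empty vector libraries. Symbols mark the replicate, thin bars the 95% Poisson interval of the reads (for the count of 0, up to 3 reads) and black lines the group means. miR-29a-3p was lowest in replicate 2 of each group, at 3229 in SMARCA4 and 3832 in empty vector cells, and miR-29b-1-5p lay between 23.5 and 27.0 in SMARCA4 libraries, under the lowest empty vector value of 49.1.

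miR-29a-3p, the main guide strand of the family in these cells, had 6487, 3229 and 6063 normalized counts in SMARCA4 replicates 1, 2 and 3, against 7525, 3832 and 7654 in empty vector replicates 1, 2 and 3. The groups overlapped, since empty vector replicate 2 lay below SMARCA4 replicates 1 and 3. The means were 5260 ± 1772 in SMARCA4 cells and 6337 ± 2170 in empty vector cells (SD, n = 3 each). The log2 fold change was -0.27 (SE 0.38, 95% interval -1.13 to 0.59, limma adjusted p = 0.705). It was 0.053 without SMARCA4 replicate 2, which leaves the low empty vector replicate 2 in its group, and -0.59 without empty vector replicate 2. Each SMARCA4 value lay below the empty vector value of the same replicate number. With a replicate block the log2 fold change was unchanged (limma unadjusted p = 0.176, adjusted p = 0.364). Counting error was small beside the spread within the groups. The standard deviation within the groups was 33.7% of the mean in SMARCA4 cells and 34.2% in empty vector cells, while 2015 to 7642 reads per library correspond to a counting error of 1.14% to 2.23%. The row ranked between 31 and 49 of the 787 listed miRNAs in single libraries.

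miR-29b-3p, which carries the nuclear motif shown above, had 243, 133 and 331 normalized counts in SMARCA4 replicates 1, 2 and 3, against 343, 308 and 360 in empty vector replicates 1, 2 and 3. SMARCA4 replicate 3 lay within the range of the empty vector libraries, so the groups overlapped. The means were 235 ± 99.2 in SMARCA4 cells and 337 ± 26.4 in empty vector cells (SD, n = 3 each). The log2 fold change was -0.61 (SE 0.37, 95% interval -1.45 to 0.23, limma adjusted p = 0.350). The spread was wider among SMARCA4 libraries, at 42.1% of the mean, than among empty vector libraries, at 7.82%. Without SMARCA4 replicate 2 the log2 fold change was -0.25.

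miR-29c-3p, the guide strand that only the chromosome 1 cluster gives, had 139, 84.9 and 111 normalized counts in SMARCA4 replicates 1, 2 and 3, against 158, 101 and 111 in empty vector replicates 1, 2 and 3. The groups overlapped. The means were 111 ± 26.8 in SMARCA4 cells and 123 ± 30.7 in empty vector cells (SD, n = 3 each). The log2 fold change was -0.15 (SE 0.35, 95% interval -0.94 to 0.64, limma adjusted p = 0.842). Its sign turned without SMARCA4 replicate 2 (0.034) and without empty vector replicate 1 (0.046). The intervals of all 3 guide strands include 0 and reach beyond a log2 fold change of -0.9, so a fall of that size is not excluded by these libraries.

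Summed over the guide strands, the family was at 5607 ± 1880 normalized counts in SMARCA4 cells and 6798 ± 2215 in empty vector cells (SD, n = 3 each). The log2 difference of the sum was -0.28. It was 0.037 without SMARCA4 replicate 2 and -0.59 without empty vector replicate 2. As a share of all miRNA reads the sum was 0.374% (95% Wilson interval 0.360 to 0.389), 0.112% (0.110 to 0.115) and 0.359% (0.346 to 0.372) in SMARCA4 replicates 1, 2 and 3. In empty vector replicates 1, 2 and 3 it was 0.483% (0.469 to 0.498), 0.239% (0.229 to 0.249) and 0.460% (0.448 to 0.473). Replicate 2 was the lowest of its group on each side, and the groups overlapped because empty vector replicate 2 lay under SMARCA4 replicates 1 and 3.

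**Figure D2:**
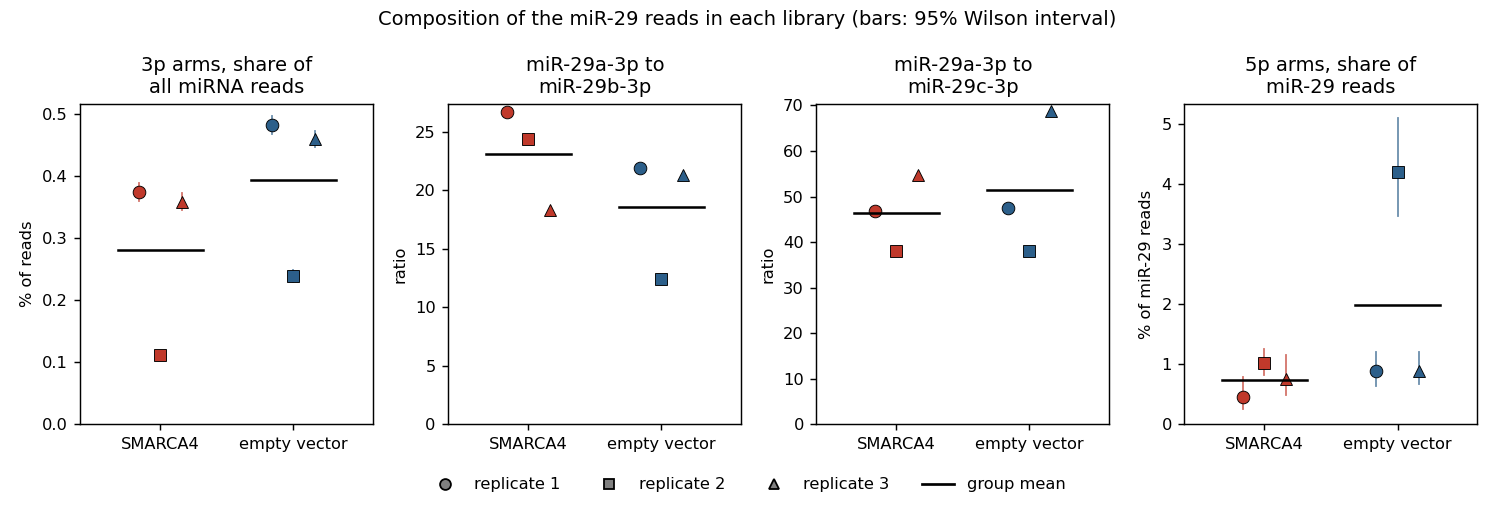
Composition of the miR-29 reads in the 3 SMARCA4 and 3 empty vector libraries: the 3p arms as a percentage of all miRNA reads, the ratio of miR-29a-3p to miR-29b-3p and to miR-29c-3p, and the 5p arms as a percentage of miR-29 reads. Symbols mark the replicate, thin bars the 95% Wilson interval and black lines the group means. The 5p arms made up 4.21% of the miR-29 reads in empty vector replicate 2 and at most 1.02% in the other libraries.

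The order of the members was the same in both groups by mean level: miR-29a-3p, miR-29b-3p, miR-29c-3p, miR-29b-1-5p, miR-29a-5p and miR-29c-5p. miR-29a-3p lay above every other member in all 6 libraries. The order held within each library, except that miR-29c-5p lay above miR-29a-5p in SMARCA4 replicate 2, at 4.65 and 3.80. Across libraries each of the other neighbours overlapped, as miR-29b-3p, from 133 to 360, did with miR-29c-3p, from 84.9 to 158. Adapter ligation differs between miRNAs, so these ratios describe reads rather than molecules. miR-29a-3p made up between 90.4% and 94.4% of the summed 3p values in the 6 libraries. It exceeded miR-29b-3p 26.7, 24.3 and 18.3 times in SMARCA4 replicates 1, 2 and 3 and 21.9, 12.4 and 21.3 times in empty vector replicates 1, 2 and 3. It exceeded miR-29c-3p 46.8, 38.0 and 54.6 times in SMARCA4 replicates and 47.5, 38.0 and 68.8 times in empty vector replicates. miR-29b-3p exceeded miR-29c-3p 1.75, 1.56 and 2.98 times in SMARCA4 replicates and 2.17, 3.06 and 3.24 times in empty vector replicates. The groups overlapped in each of these ratios, so the 3 guide strands did not separate from each other between the groups.

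Ratios within a library do not depend on how libraries were scaled. The log2 ratio of miR-29b-3p to miR-29a-3p averaged -4.51 ± 0.28 in SMARCA4 cells and -4.17 ± 0.46 in empty vector cells (SD, n = 3 each; exact two-sided permutation p = 0.4). That of miR-29c-3p to miR-29a-3p averaged -5.52 ± 0.26 in SMARCA4 cells and -5.64 ± 0.43 in empty vector cells (SD, n = 3 each; exact permutation p = 0.7), and its difference turned sign without SMARCA4 replicate 2 (-0.019) and without empty vector replicate 3 (-0.11). That of miR-29b-3p to miR-29c-3p averaged 1.01 ± 0.50 in SMARCA4 cells and 1.47 ± 0.31 in empty vector cells (SD, n = 3 each; exact permutation p = 0.2). Without SMARCA4 replicate 2 the difference in the log2 ratio of miR-29b-3p to miR-29a-3p was -0.30, where all libraries gave -0.35, and that of miR-29b-3p to miR-29c-3p was -0.28, where all libraries gave -0.46. These were 3 of 5 ratios and shares tested, the smallest p that 3 against 3 libraries allow is 0.1, and the adjusted p over the 5 was 0.667, 0.700 and 0.667 in the order given (exact permutation, Benjamini-Hochberg).

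The 5p arms, the strands that are mostly degraded, had the larger negative fold changes of the family and far fewer reads. miR-29b-1-5p, which comes only from MIR29B1 on chromosome 7, had 23.5, 27.0 and 23.6 normalized counts in SMARCA4 replicates 1, 2 and 3, against 52.8, 95.1 and 49.1 in empty vector replicates 1, 2 and 3. Every SMARCA4 library lay below every empty vector library. These values rest on 9, 64 and 10 reads in SMARCA4 replicates and on 28, 50 and 30 reads in empty vector replicates. The means were 24.7 ± 2.0 in SMARCA4 cells and 65.6 ± 25.6 in empty vector cells (SD, n = 3 each). The log2 fold change was -1.31 (SE 0.41, 95% interval -2.23 to -0.39, unadjusted p = 0.0104, limma adjusted p = 0.109). It did not pass the threshold over all miRNAs, and it stayed between -1.49 and -1.02 when any library was left out, with limma adjusted p-values from 0.0830 to 0.231, and was -1.37 without SMARCA4 replicate 2. With array weights, which weight libraries by their spread and called 14.1% of all tested miRNAs, its limma adjusted p was 0.0422. Of the other rows from the same cluster, miR-29a-3p had a log2 fold change of -0.27 and miR-29a-5p of -1.69.

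miR-29a-5p had 7.84, 3.80 and 14.2 normalized counts in SMARCA4 replicates 1, 2 and 3, against 15.1, 76.1 and 16.4 in empty vector replicates 1, 2 and 3. The groups did not overlap, but SMARCA4 replicate 3 and empty vector replicate 1 differed by less than counting error, at 6 and 8 reads with 95% Poisson intervals of 5.20 to 30.8 and 6.51 to 29.7 normalized counts. Empty vector replicate 2, with 40 reads, was the highest. The log2 fold change was -1.69 (SE 0.72, 95% interval -3.32 to -0.058, unadjusted p = 0.0438, limma adjusted p = 0.201). Leaving out SMARCA4 replicate 2 gave -1.26, and leaving out empty vector replicate 2 gave -0.95. miR-29b-1-5p and miR-29a-5p were the members whose groups did not overlap, 2 of 6, where 31.1% of all tested miRNAs did not overlap and 15.2% did so with SMARCA4 lower.

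miR-29c-5p had 0, 4.65 and 11.8 normalized counts in SMARCA4 replicates 1, 2 and 3, against 3.77, 15.2 and 8.18 in empty vector replicates 1, 2 and 3. The groups overlapped. At 0 to 11 reads in SMARCA4 libraries and 2 to 8 in empty vector libraries this row was near the limit of counting, and a count of 0 in SMARCA4 replicate 1 allows up to 3 reads, or 7.84 normalized counts. Its fitted log2 fold change was -1.10 (SE 0.94, 95% interval -3.23 to 1.03, limma adjusted p = 0.502). It was -0.069 without SMARCA4 replicate 1, and -1.32 when replicate 2 of that group was left out.

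**Figure D3:**
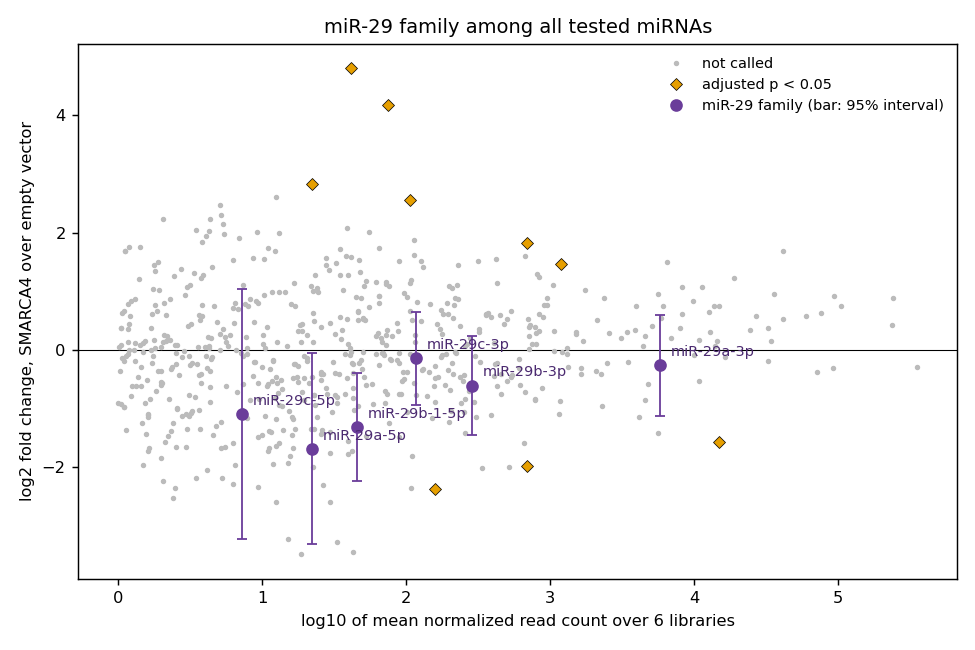
Log2 fold change of SMARCA4 over empty vector (vertical axis) against the log10 mean normalized count (horizontal axis) for the 637 tested miRNAs. Grey points were not called, orange diamonds had a limma adjusted p under 0.05, and purple points with 95% intervals are the miR-29 arms. The 3 guide strands lie between -0.61 and -0.15 and the 3 scarcer 5p arms between -1.69 and -1.10.

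The balance of the arms was then set against the rest of the table. The 5p arms together made up 0.455% (95% Wilson interval 0.260 to 0.793), 1.02% (0.824 to 1.26) and 0.756% (0.495 to 1.15) of the miR-29 reads in SMARCA4 replicates 1, 2 and 3. In empty vector replicates 1, 2 and 3 they made up 0.885% (0.645 to 1.21), 4.21% (3.47 to 5.10) and 0.897% (0.671 to 1.20). Empty vector replicate 2 stood above the other 5 libraries, whose intervals overlapped except where SMARCA4 replicate 1 lay below SMARCA4 replicate 2.

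Within the miR-29a hairpin, the 5p arm held 0.121% (0.0411 to 0.355), 0.118% (0.0619 to 0.223) and 0.233% (0.107 to 0.508) of the reads in SMARCA4 replicates 1, 2 and 3, and 0.200% (0.101 to 0.394), 1.95% (1.43 to 2.64) and 0.213% (0.116 to 0.392) in empty vector replicates 1, 2 and 3, with 95% Wilson intervals. The groups overlapped, and the difference of -0.629 percentage points (exact permutation p = 0.3) was -0.610 when SMARCA4 replicate 2 was left out and -0.0494 when empty vector replicate 2 was. Within the miR-29c hairpin, the 5p arm held 0% (0 of 53 reads, which allows a share of up to 5.66%), 5.19% (2.92 to 9.05) and 9.62% (4.18 to 20.6) in SMARCA4 replicates and 2.33% (0.640 to 8.09), 13.1% (6.80 to 23.8) and 6.85% (2.96 to 15.1) in empty vector replicates. The difference of -2.50 percentage points (exact permutation p = 0.6) was -2.62 when SMARCA4 replicate 2 was left out and 0.347 when empty vector replicate 2 was. Adjusted over the 5 ratios and shares these p-values were 0.667 and 0.700 (exact permutation, Benjamini-Hochberg).

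A lower level of the less abundant arm was frequent in this table. Of 153 hairpin names outside the family with both arms tested, the less abundant arm had a negative log2 fold change in 105 (68.6%), with a median of -0.42, and its groups did not overlap with SMARCA4 lower in 22.2%. The more abundant arms of the same hairpins had a median of 0.11, and 72 (47.1%) were negative. Their groups did not overlap with SMARCA4 lower in 18.3%, not far from the 22.2% of the less abundant arms. Over all tested miRNAs that share was 15.2%. In each library the log2 ratio of the less to the more abundant arm was centred on its mean over the 6 libraries, and the median over 155 hairpin names was -0.13, -0.47 and -0.15 in SMARCA4 replicates 1, 2 and 3 and 0.20, 0.47 and 0.24 in empty vector replicates 1, 2 and 3. Every SMARCA4 library thus lay below every empty vector library in this measure, and empty vector replicate 2 was the highest, as it was for the miR-29 5p arms. The difference of 1.42 in the log2 ratio of the miR-29a arms was matched or exceeded in size by 34.2% of the hairpin names. The arms of 32.3% of the names had ratios that did not overlap between the groups, which miR-29a and miR-29c were not among. The part of this difference across the table in the values of the miR-29 5p arms was not tested.

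**Figure D4:**
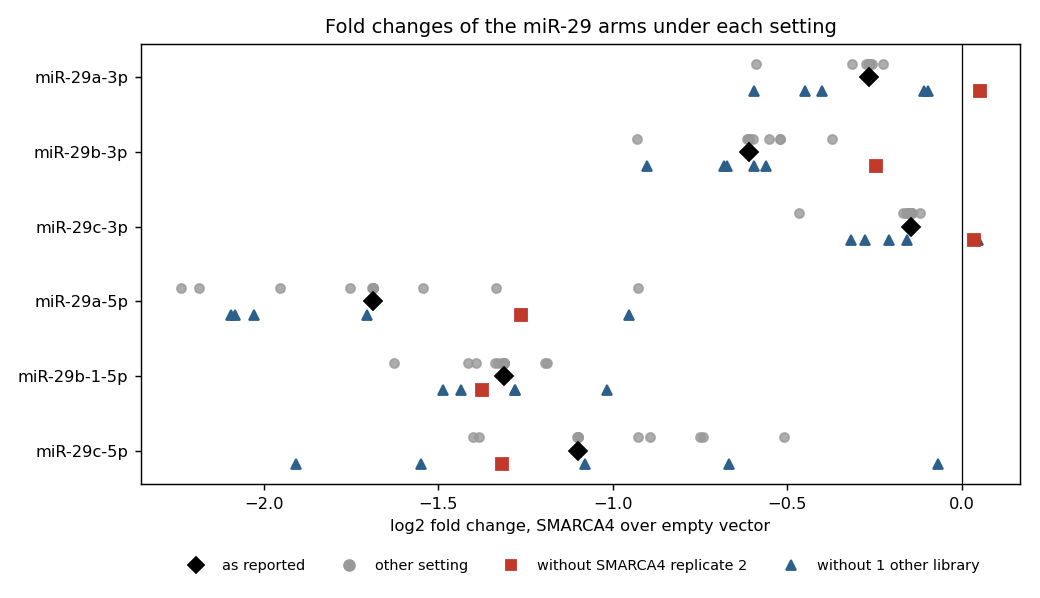
Log2 fold change of SMARCA4 over empty vector (horizontal axis) for each miR-29 arm as reported (black diamonds), under 12 other processing settings (grey circles, 11 for miR-29c-5p), without SMARCA4 replicate 2 (red squares) and without each other library (blue triangles). miR-29a-3p and miR-29c-3p crossed 0 without SMARCA4 replicate 2, and the 5p arms stayed negative in every setting drawn.

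Outside the family, the 3 miRNAs with the most similar profile over the 6 libraries were found for each guide strand among 416 miRNAs with a mean of at least 10, by the root mean square difference of log2(value + 1) after each miRNA was centred on its own mean. For miR-29a-3p these were miR-125a-5p (0.12), miR-224-5p (0.13) and miR-15b-5p (0.19), against a median of 0.77 over the 416. For comparison, its seed relatives miR-29c-3p and miR-29b-3p were at 0.30 and 0.36 from miR-29a-3p. The 3 nearest were picked from 416, so their lying closer than the seed relatives follows largely from that choice. The seed relatives also had fewer reads per library than miR-29a-3p, 47 to 201 for miR-29c-3p and 93 to 314 for miR-29b-3p. miR-125a-5p had 18426, 9847 and 18357 normalized counts in SMARCA4 replicates 1, 2 and 3, against 18724, 9939 and 23202 in empty vector replicates 1, 2 and 3, with replicate 2 low in both groups as for miR-29a-3p. For miR-29b-3p the nearest were miR-487a-3p (0.19), miR-424-5p (0.20) and miR-15b-3p (0.20). For miR-29c-3p they were miR-194-5p (0.16), miR-10a-3p (0.18) and miR-126-3p (0.18). None of these 9 passed the test between the groups, with limma adjusted p-values from 0.455 to 0.965, where 1.41% of all tested miRNAs passed. They were chosen for likeness to uncalled arms over the same 6 libraries, so this outcome follows largely from the choice. Points in such profiles share libraries and their scaling.

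**Figure D5:**
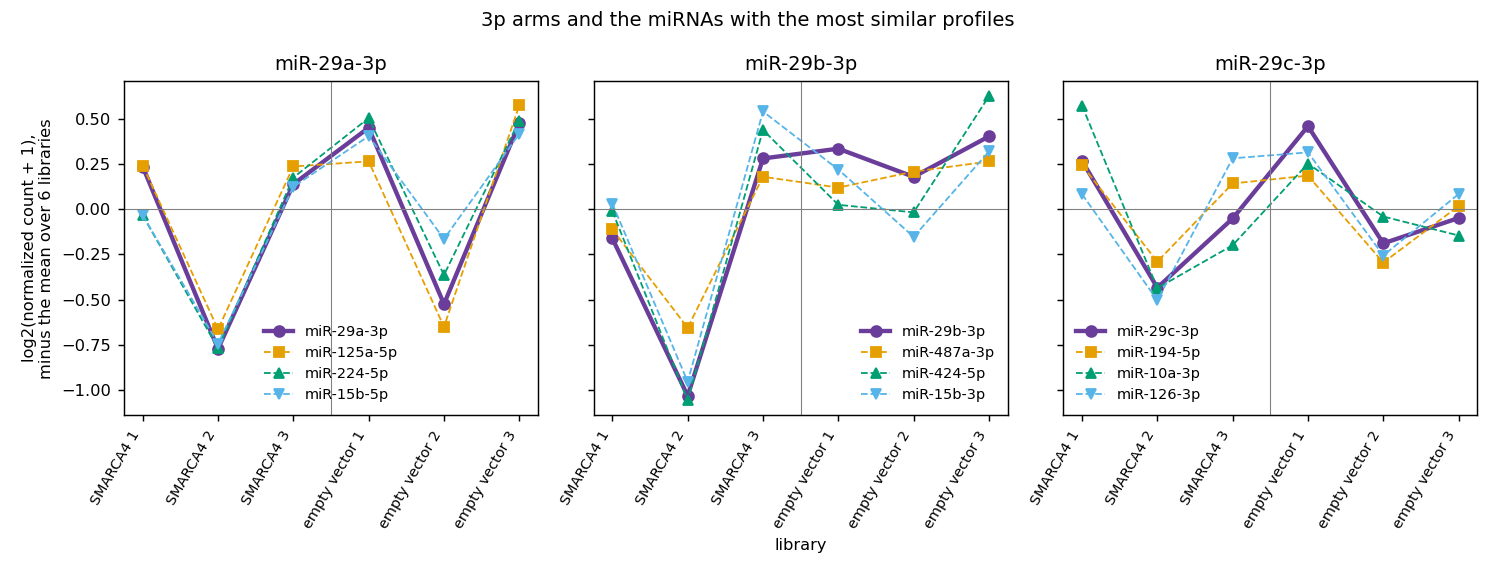
Profiles of the 3 miR-29 guide strands (purple) and of the 3 most similar miRNAs outside the family (dashed) over the 6 libraries, as log2(normalized count + 1) minus the mean over libraries. miR-29a-3p and miR-125a-5p were both low in SMARCA4 replicate 2 and in empty vector replicate 2, and their profiles differed by 0.12 (root mean square).

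Other miRNAs known to act on the same kinds of targets were examined as lists. Of 5 miRNAs described as acting on DNA methyltransferase mRNAs beside miR-29, 0 were called by limma, edgeR or DESeq2, which called 1.41%, 1.26% and 10.4% over the table. By each tool 2 had an unadjusted p under 0.05. Over all tested miRNAs 22.6% were under that level by limma, 24% by edgeR and 18.1% by DESeq2. The median log2 fold change of the 5 was -0.17, against -0.047 for all tested miRNAs. miR-148b-3p, which acts on DNMT1, was at 1607 ± 684 normalized counts in SMARCA4 cells and 2977 ± 441 in empty vector cells (SD, n = 3 each; log2 fold change -0.96, limma adjusted p = 0.129). miR-152-3p, of the same seed family, was at 285 ± 28.1 in SMARCA4 cells and 153 ± 15.5 in empty vector cells (SD, n = 3 each; log2 fold change 0.89, limma adjusted p = 0.110). miR-101-3p, known for its action on EZH2, was at 1826 ± 421 in SMARCA4 cells and 2345 ± 573 in empty vector cells (SD, n = 3 each; limma adjusted p = 0.483).

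Of 13 miRNAs described in fibrosis and matrix regulation beside miR-29, 9 were tested. Limma and edgeR called 0 of them, with 3 at an unadjusted p under 0.05 by each, and DESeq2 called 1, miR-30c-5p. Over all tested miRNAs 22.6% were under that level by limma and 24% by edgeR. Over the table limma called 1.41%, edgeR 1.26% and DESeq2 10.4%. The median log2 fold change of the 9 was 0.056. miR-30c-5p, which acts on the matricellular protein CTGF, was at 3112 ± 1050 in SMARCA4 cells and 8038 ± 1287 in empty vector cells (SD, n = 3 each; log2 fold change -1.42, limma adjusted p = 0.0656). The most abundant of the list were miR-21-5p, which promotes fibrosis and was at a log2 fold change of -0.30 (limma adjusted p = 0.645), and miR-192-5p, at 0.43 (limma adjusted p = 0.381).

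Of 8 miRNAs described as acting on the survival genes MCL1 or BCL2 beside miR-29, all were tested. Limma and edgeR called 0, with 1 and 2 at an unadjusted p under 0.05, against 22.6% and 24% of all tested miRNAs. DESeq2 called 1, miR-181a-5p. Over the table limma, edgeR and DESeq2 called 1.41%, 1.26% and 10.4%. The median log2 fold change of the 8 was 0.26. miR-181a-5p, which was the most abundant, had a log2 fold change of 1.69 (limma adjusted p = 0.0656), and miR-16-5p, a known regulator of BCL2, had 0.16 (limma adjusted p = 0.783).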

How the data were processed

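The members, lists and tests were chosen with earlier results of these data known. Per the submitters' processing notes, bcl2fastq 2.18.0.12 made the reads and the genome build was GRCh38 (aligner, counter and miRNA annotation: not given in the sources used here). The authors deposited 1 normalized signal for each mature miRNA and library, a read count times a factor, in a table whose name speaks of TMM. All values in a library were whole multiples of its smallest (within 1e-06 reads), so reads could be recovered for 100% of values. Recovered totals cover listed miRNAs. Intervals and floors cover counting error only, because PCR copies are counted as reads.

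Sample titles gave groups and replicate numbers. limma 3.58.1 (R 4.3.3) was fitted to log2(value + 1) with a mean-variance trend and no term but the group, over the 637 miRNAs whose mean was at least 1, and p-values were adjusted by Benjamini and Hochberg with a threshold of 0.05. The added 1 pulls fold changes of scarce miRNAs towards 0, and a mean of logs can also differ from a fit to counts. The log2 fold change of miR-29a-5p was -1.69 by limma, -2.24 by edgeR and -2.18 by DESeq2. That of miR-29c-5p differed the other way, at -1.10 by limma, -0.75 by edgeR and -0.74 by DESeq2. On the recovered reads, edgeR 4.0.16 (quasi-likelihood) called 8 miRNAs and DESeq2 1.42.0 called 44, where limma called 9. The limma step was tested on simulated data. Chi-square per degree of freedom between libraries was at least 6.61, so none was a duplicate within sampling noise. Between replicates 1 and 3 it was 6.61 for SMARCA4 and 24.6 for empty vector. Replicate 2 was further from replicates 1 and 3 of its group, at 356 and 362.5 for SMARCA4 and 126 and 174 for empty vector. SMARCA4 replicate 2 also held the most reads. Named miRNAs were all miR-29 rows, the 3 nearest profiles of each 3p arm, and the 2 most abundant and any called members of each target list. miR-152-3p, miR-30c-5p and the named marker miRNAs were chosen after their values were seen.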

Additional observations from a re-analysis of the deposited data

How the results depend on the processing

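No setting but array weights called a miR-29 arm: miR-29b-1-5p then had a log2 fold change of -1.19 (limma adjusted p = 0.0422). Its adjusted p ranged from 0.0422 to 0.123 over 12 settings that kept all libraries. Leaving out each library moved the log2 fold change of miR-29a-3p between -0.59 and 0.053, of miR-29b-3p between -0.90 and -0.25, of miR-29c-3p between -0.32 and 0.046 (0.034 without SMARCA4 replicate 2), of miR-29a-5p between -2.09 and -0.95, of miR-29b-1-5p between -1.49 and -1.02 and of miR-29c-5p between -1.91 and -0.069. It moved the difference in the 5p share of miR-29c between -5.05 and 0.347 percentage points and that in the log2 ratio of miR-29c-3p to miR-29a-3p between -0.11 and 0.31. It moved the number of miRNAs called in the table between 0 and 41, where 9 were called with all libraries. That number was 23 with no filter, 90 with array weights and 44 by DESeq2, and the cause was not tested. Libraries rescaled to the same total shifted the median of all tested miRNAs by -0.26 and gave -0.59 for miR-29a-3p and -0.47 for miR-29c-3p. With a mean of at least 10 required, miR-29c-5p was not fitted. Same-numbered libraries deviated together only weakly (r = 0.073, 0.088 and 0.014 for numbers 1, 2 and 3 over 637 miRNAs). Every library except SMARCA4 replicate 3 correlated best with its own number, and that library did so with empty vector replicate 1 (r = 0.049). The numbers were not taken as pairs in the main fit. A replicate block gave 13 called miRNAs and 0 miR-29 arms. The few reads of the 5p arms limit what can be said of them.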
